A study of Mus musculus with 80 samples.

Results

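Expression was compared between 2 kinds of region in cross sections of mouse tibialis anterior, the fast muscle at the front of the shin: regions the labels call nerve bundle and regions they call surrounding artery. The value for a gene was its difference within an animal, the mean of log2(value + 1) over nerve bundle regions minus the mean over surrounding artery regions, in 12 animals with tau and control mice together. Of the 80 regions of the study, 38 entered: 18 nerve bundle regions (9 from tau and 9 from control mice) and 20 surrounding artery regions (10 from tau and 10 from control mice). The other regions were of normal fibres (20) and of fibres with central nuclei (22).

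The tau group was 6 C57Bl/6 mice, labelled with the treatment tauopathy and described as expressing P301L tau, a tau mutant found in families with frontotemporal dementia (tau binds microtubules). The reference was 6 control C57Bl/6 mice. The labels give the genotype WT for every animal and 4 female and 2 male mice in the tau group, against 3 female and 3 male mice among the controls, whereas the design text states 3 per sex and treatment. The name of the deposited table includes AAV8, a viral vector used to deliver genes, and no label says what the controls received. Ages, the promoter that drives tau and the way regions were outlined do not appear in the sources used here. Every region carries the cell type label Myofibers. The assay was the GeoMx mouse whole transcriptome atlas of NanoString: probes bound to RNA in the section carry barcodes, which light cuts loose inside an outlined region so that they can be counted. The deposited values are probe counts normalised to the third quartile of each region, on a linear scale, and are called values here.

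A peripheral nerve holds axons wrapped by Schwann cells, whose myelin holds proteins such as PMP22, together with endoneurial fibroblasts and a perineurial sheath. The artery that runs beside it has a coat of smooth muscle, rich in the actin Acta2 and the myosin Myh11, an endothelial lining, elastic fibres and an adventitia of fibroblasts and macrophages. Where a motor axon meets a fibre, the nuclei under the junction transcribe acetylcholine receptor subunits and acetylcholinesterase at a high rate. In a bulk measurement of a region, fewer cells of a type and less RNA per cell cannot be told apart.

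Total counts of the 38 regions were between 145487 and 3220998, with medians of 1066249 in nerve bundle and 1374156 in surrounding artery regions. The value of the negative probes, which match no gene and give the background, had a median of 33.9 in nerve bundle and 35.3 in surrounding artery regions, with a range of 17.2 to 50.2 over both. Neither quantity separated the region types within animals. The difference was -0.16 on the log2 scale for the total count (exact two-sided permutation test by sign flips, p = 0.720, n = 12) and 0.0015 for the negative probes (p = 0.962). The slides differed more: the median negative probe value was 22.8 on slide 1, 46.1 on slide 2 and 34.4 on slide 3, each slide holding 2 tau and 2 control animals. In a principal component analysis of the 38 regions the first component held 51.9% of the variance, of which slide accounted for 81.5% and region type for 1.10%. The only nerve bundle region of control animal C20 was the shallowest, with a third-quartile count of 10.

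The promoter windows of 3 genes are shown because these genes of the neuromuscular junction had positive mean differences, given below. Each window holds the 250 bases before the start given by RefSeq in GRCm38.p6, the build of all coordinates here, 5′ to 3′ on the gene's strand. Capitals mark E-boxes (CANNTG, a general motif of which some forms are bound by myogenic factors). In Chrne they also mark 1 N-box (CCGGAA, the motif of synapse-specific transcription). The motifs were searched on both strands and do not overlap here. An E-box is in 66.2% and CCGGAA in 12% of the 32851 windows of the same length in the table. The Chrne window, chr11:70619195-70619444 on the minus strand, holds 1 E-box and 1 N-box. The Chrna1 window, chr2:73580339-73580588 on the minus strand, holds 3 E-boxes, and that of Ache, chr5:137288004-137288253 on the plus strand, holds 1. The end of the Ache window lies inside the gene span given below, whose first base comes before the start used for the window.
Chrne: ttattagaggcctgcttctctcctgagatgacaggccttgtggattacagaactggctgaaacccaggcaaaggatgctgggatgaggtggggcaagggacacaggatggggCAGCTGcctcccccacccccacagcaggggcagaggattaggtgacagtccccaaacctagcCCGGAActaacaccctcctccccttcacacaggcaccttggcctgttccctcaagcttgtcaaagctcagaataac
Chrna1: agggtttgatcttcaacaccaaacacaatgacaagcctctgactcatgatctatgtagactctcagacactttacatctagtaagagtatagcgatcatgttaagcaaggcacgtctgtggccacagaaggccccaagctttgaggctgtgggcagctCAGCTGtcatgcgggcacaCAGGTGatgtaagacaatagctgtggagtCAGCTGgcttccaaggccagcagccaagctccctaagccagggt
Ache: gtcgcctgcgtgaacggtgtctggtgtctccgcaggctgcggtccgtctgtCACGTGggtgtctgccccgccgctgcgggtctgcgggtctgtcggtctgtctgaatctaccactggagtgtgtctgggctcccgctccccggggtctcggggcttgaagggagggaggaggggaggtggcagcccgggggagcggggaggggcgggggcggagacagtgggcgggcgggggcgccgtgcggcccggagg

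No gene passed the test between nerve bundle and surrounding artery regions. Of 10312 genes tested, 0 (0%) had a limma adjusted p under 0.05 in either direction, and the lowest adjusted p was 0.990. At an unadjusted p under 0.05 there were 391 genes (3.79%), of which 205 (1.99%) were higher and 186 (1.8%) lower in nerve bundle regions. A count test with edgeR on the recovered counts, with animal as a block, also called 0 genes, had 346 (3.36%) at an unadjusted p under 0.05, and gave a lowest adjusted p of 0.210. The median difference of all genes was -0.01 and 90% of the differences were between -0.17 and 0.15. Of all genes, 45.1% had a positive difference, the share beside which the list counts below are to be read. No gene differed by more than 1 on the log2 scale on average, and 6 by more than 0.5. The 95% interval of a difference reached a median of 0.18 to either side, so a miss does not show that a gene was alike in both. The differences had a median SD of 0.30 over animals, and single regions of the same type and animal had a median SD of 0.25 about their mean.

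Against the normal fibre regions of the same animals, the same fit called 1 gene higher in nerve bundle regions (0.0097%) and 35 genes higher in surrounding artery regions (0.339%), and none lower in either. The normal regions are shared by both comparisons. Acta2 was 0.83 ± 0.24 (SE) higher in nerve bundle than in normal regions on the log2 scale, where it did not pass (limma adjusted p = 0.790), and 1.14 ± 0.17 higher in surrounding artery than in normal regions (adjusted p = 0.0039). Dcn, the matrix proteoglycan decorin of fibroblasts, was the gene called in nerve bundle regions, at 0.61 ± 0.09 above normal regions (adjusted p = 0.017). Dcn was also called in surrounding artery regions, at 0.46 ± 0.09 (adjusted p = 0.037). Flna, Clec3b and Fbn1, described below, were called there too, at 0.68 ± 0.11, 0.53 ± 0.09 and 0.42 ± 0.09. Their limma adjusted p was 0.0093, 0.013 and 0.045. In nerve bundle regions they were 0.24 ± 0.11, 0.30 ± 0.10 and 0.09 ± 0.11 above normal regions. They did not pass there (limma adjusted p = 0.790, 0.790 and 0.865). A pass in 1 comparison and a miss in the other does not test the region types against each other.

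**Figure D1:**
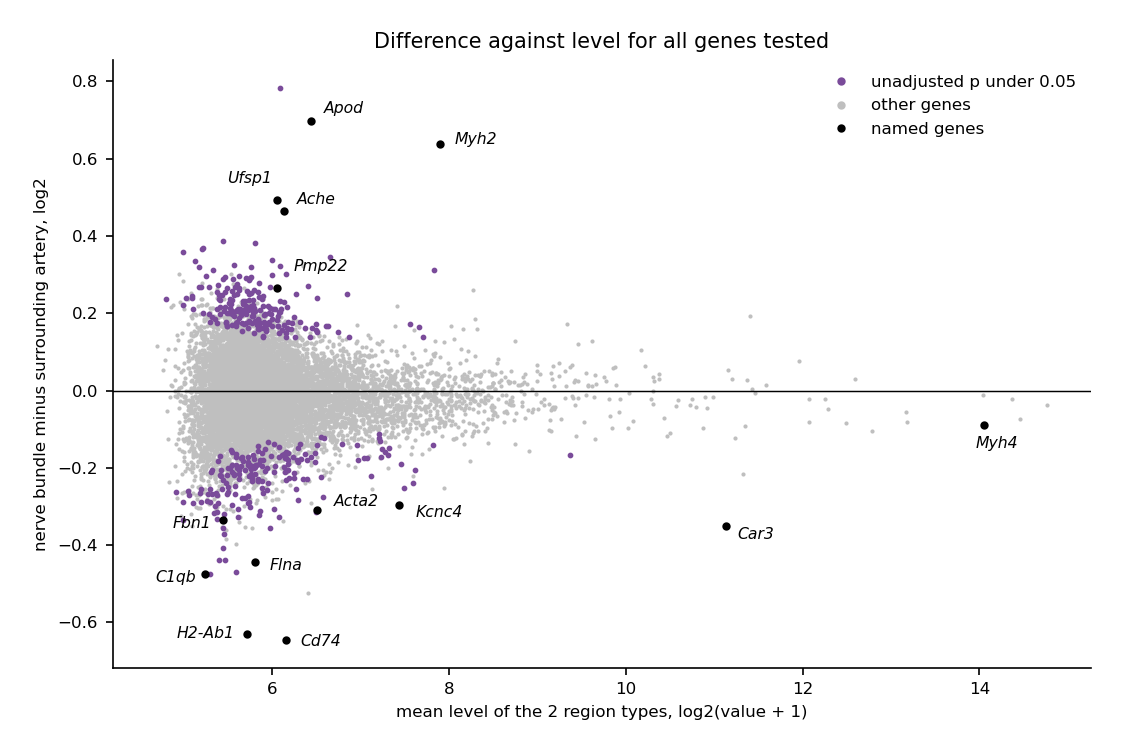
Mean difference (nerve bundle minus surrounding artery, log2, 12 animals) against the mean level of the 2 region types, log2(value + 1), for the 10312 genes tested. Purple points have an unadjusted p under 0.05, black points are genes named in the text, and no gene passed after adjustment. Apod (0.70) and Myh2 (0.64) lie far above the cloud, and Cd74 (-0.65) and H2-Ab1 (-0.63) far below it.

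Pmp22, a structural protein of compact myelin (chr11:63128982-63159547), leaned towards nerve bundle regions and did not pass. Its values were 41.3, 67.4 and 146 (lowest, median, highest) in nerve bundle regions and 27.1, 63.9 and 79.4 in surrounding artery regions. The difference was 0.27 ± 0.10, with p = 0.0138 and adjusted p = 0.990 (limma). It was positive in 9 of 12 animals, with a mean of 0.48 in tau animals and 0.05 in control animals. By slide it was 0.37, 0.17 and 0.26. The SD of Pmp22 between regions of the same type and animal was 0.48 on the log2 scale about their mean.

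The other myelinating Schwann cell genes named here did not pass either. Of 37 genes listed for these cells and their myelin, 14 were tested, 0 passed in either direction, 11 had a positive difference and the median was 0.07, beside -0.01 for all genes. That median was 0.05 without C2, and it was 0.18 in tau animals and 0.0096 in control animals. Prx, the periaxin of Schwann cells, differed by 0.08 ± 0.07 and the calcium-binding S100b by 0.06 ± 0.07. Cnp, a myelin phosphodiesterase, differed by 0.12 ± 0.09, and Arhgef10, a guanine nucleotide exchange factor, by -0.27 ± 0.15 (-0.14 without C20). Sox10, the transcription factor that defines the lineage, was below the filter on low values, which asked for 1.5 times the negative probe value in 10% of the 38 regions. The median level of the 14 genes was only 0.64 above that of the negative probes on the log2 scale.

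**Figure D2:**
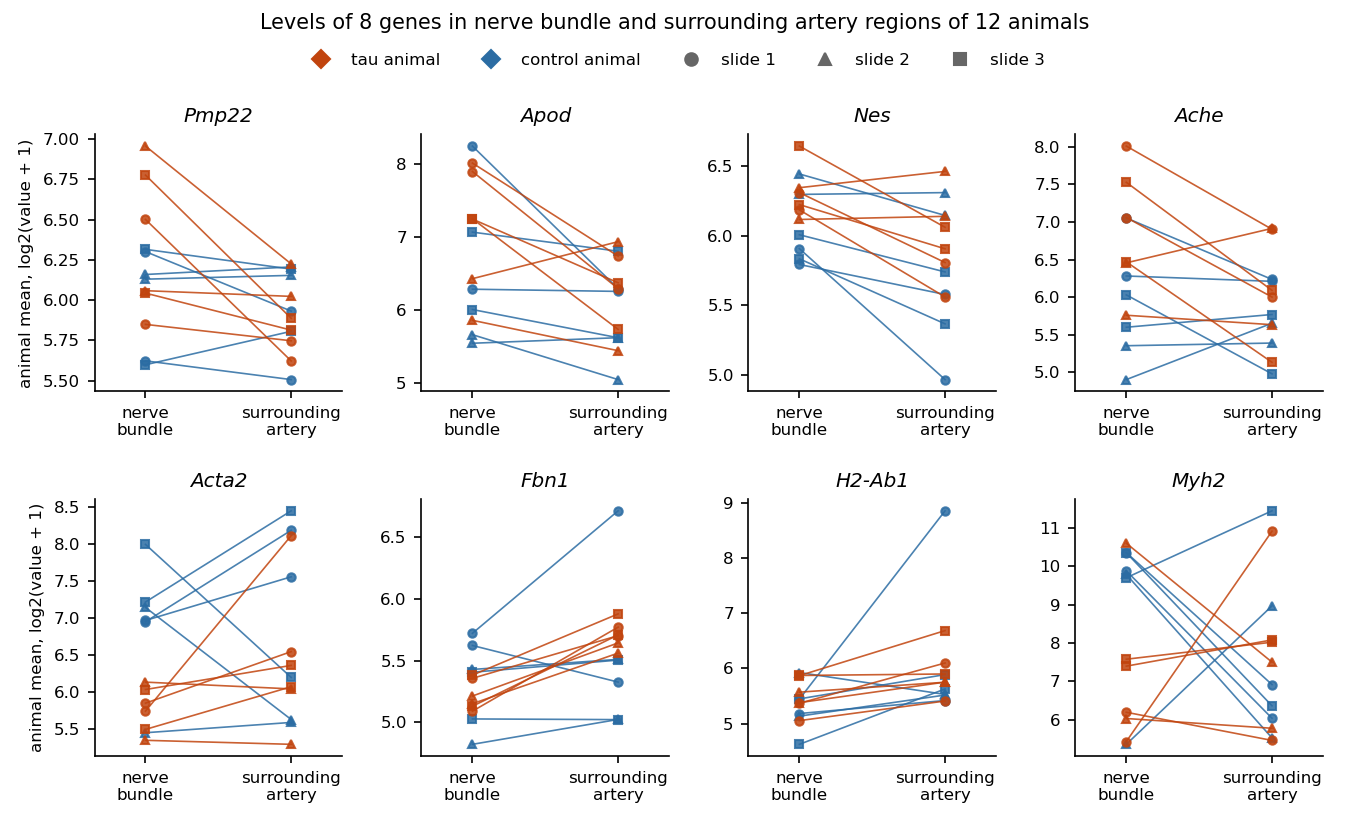
Animal means of log2(value + 1) in nerve bundle (left) and surrounding artery regions (right) for 8 genes, 1 line per animal, coloured by treatment and with a symbol per slide. Apod is higher in nerve bundle regions in 10 of 12 animals, Fbn1 lower in 10 of 12, and Acta2 and Myh2 go both ways.

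Apod, the lipid carrier apolipoprotein D made by Schwann cells and fibroblasts of nerves (chr16:31296192-31314808), had the smallest p among genes higher in nerve bundle regions. Its values were 45.6, 123 and 609 (lowest, median, highest) in nerve bundle regions, against 32, 54.6 and 170 in surrounding artery regions. The difference was 0.70 ± 0.18, positive in 10 of 12 animals, with p = 8.8e-04 and adjusted p = 0.990 (limma). It was 1.22 on slide 1, 0.11 on slide 2 and 0.76 on slide 3. In the list for non-myelinating and repair Schwann cells, 8 genes were tested, 0 passed and the median was 0.09. Beside Apod, Shh, a secreted ligand, and Plekhb1, a membrane-associated protein, had an unadjusted p under 0.05, at 0.20 ± 0.08 and 0.17 ± 0.08. The adhesion molecule Ncam1 differed by 0.20 ± 0.13. The mean log2(value + 1) of Shh was 5.64 in nerve bundle and 5.58 in normal fibre regions, and that of Plekhb1 6.70 and 6.64. For Apod these were 6.79 and 5.55, and for Ncam1 5.20 and 4.69.

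Nes, the intermediate filament nestin (chr3:87971093-87980451), followed Apod in rank. It had 34.4, 73.7 and 106 (lowest, median, highest) in nerve bundle regions and 25.4, 57.9 and 91.2 in surrounding artery regions. The difference was 0.34 ± 0.09, positive in 9 of 12 animals (p = 9.3e-04, adjusted p = 0.990, limma). Qrfprl differed by 0.29 ± 0.08, also positive in 9 of 12 animals.

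Of the other constituents of a nerve, the sheath genes leaned towards nerve bundle regions and the axon genes did not. Of 9 genes tested for perineurial and endoneurial fibroblasts, 8 had a positive difference and 0 passed. Their median of 0.09 was the highest of the 34 lists, with 0.09 also for fatty acid use. The sheath median was 0.13 in tau animals and -0.0046 in control animals. By slide it was 0.09, -0.01 and 0.16. The transporter Abca9, at 0.24 ± 0.11, was the only one of the 9 with an unadjusted p under 0.05. Its mean level lay below the negative probes, at -0.19 in nerve bundle and -0.43 in surrounding artery regions relative to them (log2). Of 10 genes tested for axons and neurons, 4 had a positive difference (45.1% of all genes did), the median was -0.05 and 0 passed. The actin-binding Tmsb10 had the smallest p of these, at -0.31 ± 0.09, and Mapt, the mouse tau gene, differed by -0.17 ± 0.09 (-0.09 without C20). Of 10 genes tested for Schwann cell signalling and neural crest factors, 3 had a positive difference and the median was -0.06. Lama2, a laminin chain of basement membranes, was at -0.26 ± 0.12, with -1.44 in C20 and a mean of -0.16 without it.

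Most tested genes of the neuromuscular junction leaned towards nerve bundle regions, and none passed. Of 17 tested members, 14 had a positive difference, the median was 0.07 (0.03 without C20), and 5 (against 1.99% of all genes) had an unadjusted p under 0.05 and a positive difference. The members share the same 38 regions. The list holds genes transcribed by the nuclei under the synapse in mouse muscle.

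Ache, acetylcholinesterase (chr5:137288247-137294466), had 28.9, 82.9 and 387 (lowest, median, highest) in nerve bundle regions and 26.6, 53.5 and 156 in surrounding artery regions. The difference was 0.47 ± 0.17, positive in 8 of 12 animals (p = 0.0156, adjusted p = 0.990, limma). Its mean was 0.77 in tau animals and 0.16 in control animals. Ufsp1, a UFM1-specific peptidase whose gene lies next to Ache (chr5:137294669-137295664), had 41.1, 82.8 and 357 in nerve bundle regions, against 34.7, 49.2 and 136 in surrounding artery regions. It differed by 0.49 ± 0.13, positive in 9 of 12 animals (p = 0.0016).

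The receptor subunits were lower in level. Chrnd, the delta subunit of the acetylcholine receptor (chr1:87190597-87200070), had 37.8, 46.8 and 79.1 in nerve bundle regions and 14.4, 38.4 and 57.5 in surrounding artery regions. Its difference was 0.39 ± 0.12, positive in 10 of 12 animals, among them 6 of 6 tau animals. Chrne, the epsilon subunit of the adult receptor, was named after its values were seen. It had 23.7, 72.7 and 301 in nerve bundle regions and 28.8, 44.2 and 103 in surrounding artery regions, a difference of 0.38 ± 0.16, positive in 7 of 12 animals. Chrna1, the alpha subunit, differed by 0.30 ± 0.15 (p = 0.0657), and Prkar1a, a regulatory subunit of protein kinase A, by 0.31 ± 0.09.

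These leanings were unequal over the slides. On slide 2, which had the highest negative probe values, the mean difference was -0.28 for Ache, -0.06 for Ufsp1 and -0.04 for Chrnd. On slide 1 it was 0.76, 0.74 and 0.66 for these genes, and on slide 3 it was 0.91, 0.80 and 0.54. Without the 4 animals of slide 2 the difference of Ache was 0.84, that of Ufsp1 0.77 and that of Apod 0.99, and none passed. The part of background in this was not tested.

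**Figure D3:**
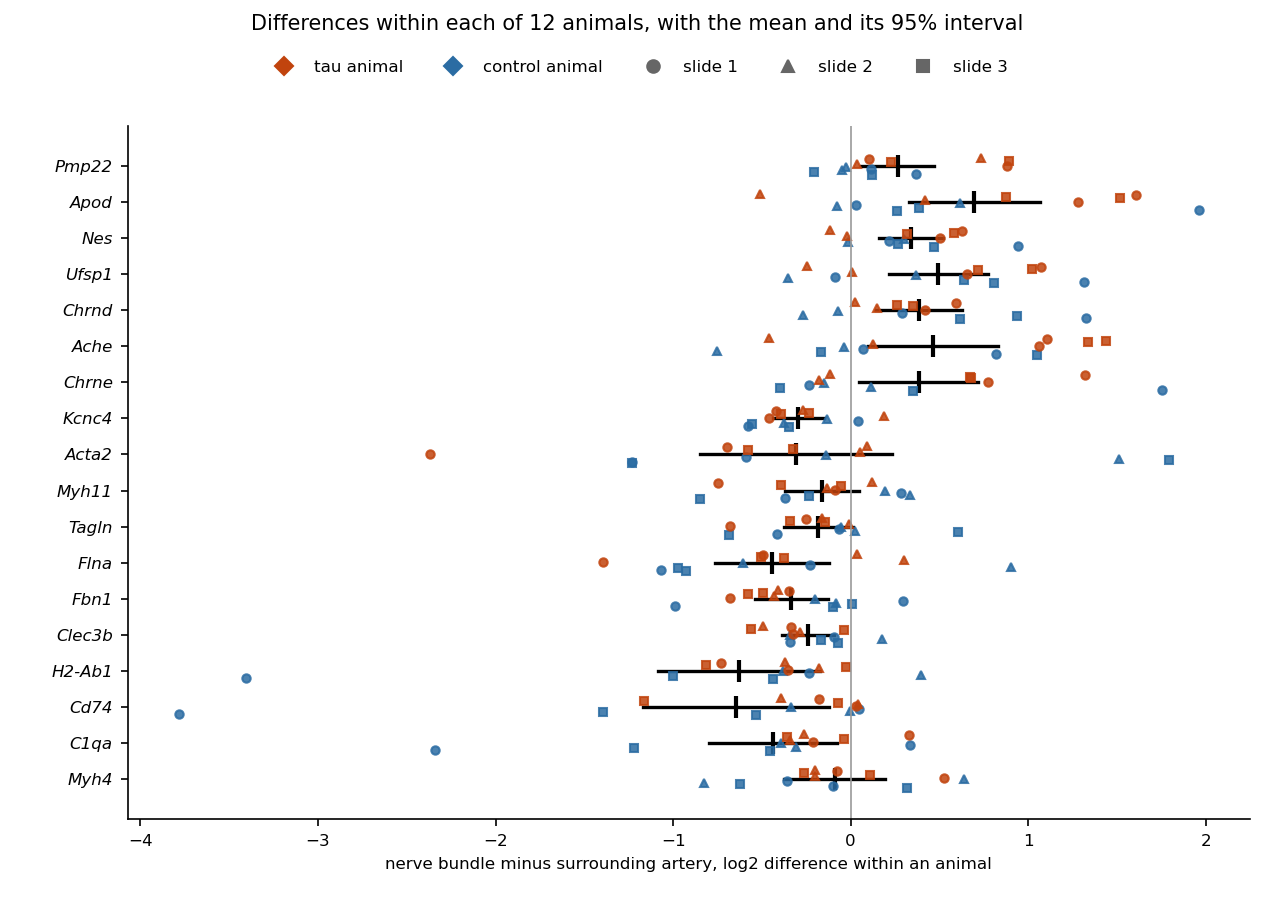
Difference within each of 12 animals (nerve bundle minus surrounding artery, log2) for 18 named genes. Colours give treatment, symbols give the slide, and the black bar and line give the mean and its 95% interval before adjustment. Intervals of Pmp22, Apod, Nes and the junction genes lie above 0 and those of Flna, Fbn1 and H2-Ab1 below it, while single animals of most genes lie on both sides and none of the genes passed after adjustment.

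The smooth muscle markers did not separate the region types. Acta2, smooth muscle actin (chr19:34240336-34255585), had 38.4, 76.8 and 253 (lowest, median, highest) in nerve bundle regions and 28.3, 87.6 and 387 in surrounding artery regions. The ranges overlap almost in full. The difference was -0.31 ± 0.26 (p = 0.248, adjusted p = 0.990, limma), negative in 8 of 12 animals. It was -0.64 in tau animals and 0.02 in control animals. Single animals went far in both directions, with -2.37 in tau animal T13, against 1.79 and 1.51 in control animals C20 and C3, and the mean was -0.12 without T13, -0.50 without C20 and -0.47 without C3. In T13 the nerve bundle region had an Acta2 value of 52.5 and the surrounding artery region 275. In C3 the nerve bundle region had 140 and the surrounding artery regions 40.9 and 57.3.

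Myh11, the smooth muscle myosin heavy chain (chr16:14194527-14292188), had 34.4, 63.9 and 95.4 in nerve bundle regions and 33.6, 74.3 and 129 in surrounding artery regions. It differed by -0.16 ± 0.10 and was lower in nerve bundle regions in 8 of 12 animals (-0.10 without C16). Tagln, an actin-binding protein of smooth muscle, differed by -0.18 ± 0.09 and was lower in 10 of 12 animals. With Pmp22 leaning towards nerve bundle regions and Acta2, Myh11 and Tagln towards surrounding artery regions, none past the threshold, the labels' names are used here as names of the regions only. Of 24 tested genes of the contractile apparatus of vascular smooth muscle, 0 passed and 11 had a positive difference (45.1% of all genes did). Their median was -0.01, the same as that of all genes.

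The members of that list with the smallest p are also made by many other cells. Myl6, a light chain of smooth and non-muscle myosin, had 94.9, 132 and 175 in nerve bundle regions and 97.7, 143 and 271 in surrounding artery regions. It differed by -0.22 ± 0.07 and was lower in 11 of 12 animals. Flna, the actin crosslinker filamin A (chrX:74223461-74249854), had 23.7, 49.6 and 89.4 in nerve bundle regions and 30.9, 58.4 and 211 in surrounding artery regions. It differed by -0.44 ± 0.15 and was lower in 9 of 12 animals, with 0.16 on slide 2 and -0.80 and -0.69 on slides 1 and 3. Map3k7cl was at 0.25 ± 0.13.

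No endothelial or mural gene passed. Of 29 tested genes of endothelium, 10 had a positive and 19 a negative difference, the median was -0.03 and 0 had an unadjusted p under 0.05. Pecam1, an adhesion molecule of all endothelium, differed by 0.02 ± 0.08 (95% interval -0.14 to 0.19) and Cdh5, its cadherin, by -0.03 ± 0.09 (95% interval -0.21 to 0.15). Emcn, a sialomucin of capillary and venous endothelium, was at -0.26 ± 0.12. Cd34, a sialomucin of endothelium and progenitors, was at -0.20 ± 0.10, Lyve1, a receptor of lymphatic endothelium, at -0.23 ± 0.13 and Vwf, von Willebrand factor, at -0.20 ± 0.14. In control animal C2 the last 3 were -1.17, -1.20 and -1.77, and without it their means were -0.11, -0.14 and -0.06. Lyve1 was lower still in control animal C20, at -1.34, and its mean without C20 was -0.13. The list of arterial identity had 15 tested members and a median of 0.03, with the semaphorin Sema3g at 0.19 ± 0.08. The 16 tested pericyte genes had a median of -0.05, with the adhesive protein Vtn at 0.25 ± 0.10. Smooth muscle transcription factors (13 tested, with the signal transducer Smad3 at -0.16 ± 0.06), ion channels and cyclic nucleotide signalling (19), vasoactive receptors (12) and the Notch pathway (8) had medians of -0.02, -0.04, 0.02 and -0.05, with 0 members past the threshold.

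Some matrix genes of the arterial wall leaned towards surrounding artery regions. Fbn1, fibrillin, the scaffold of elastic fibres (chr2:125300594-125506485), had 27.3, 37.5 and 59.9 (lowest, median, highest) in nerve bundle regions and 27.8, 47.8 and 141 in surrounding artery regions. It differed by -0.33 ± 0.10 and was lower in nerve bundle regions in 10 of 12 animals (p = 0.0031, adjusted p = 0.990, limma). In tau animals the mean was -0.49, negative in 6 of 6, and in control animals -0.18, negative in 4 of 6. Its level was close to background, 0.17 above the negative probes in nerve bundle and 0.51 above them in surrounding artery regions on the log2 scale. Of the 15 tested genes of elastic fibres and arterial matrix, 4 had a positive difference, the median was -0.12 and 0 passed. Single control animals weighed on that median, which was -0.07 without C2 and -0.04 without C20. The matrix protein Cilp was at -0.30 ± 0.12 (-0.20 without C20) and the proteoglycan Bgn at -0.23 ± 0.12 (-0.14 without C2). Aebp1, a collagen-binding protein, was at -0.26 ± 0.15 (-0.14 without C2). The mean log2(value + 1) of Aebp1 was higher in normal fibre regions (6.26) than in surrounding artery (6.01) or nerve bundle regions (5.75).

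Fibroblast genes went both ways. Of 28 tested, 10 had a positive difference (45.1% of all genes did) and the median was -0.06. At an unadjusted p under 0.05, 4 were higher (against 1.99% of all genes) and 4 lower (against 1.8%). Clec3b, tetranectin (chr9:123150946-123157432), had 46.1, 55.8 and 107 in nerve bundle regions and 48.4, 65.9 and 105 in surrounding artery regions. It differed by -0.24 ± 0.07 and was lower in 11 of 12 animals, with -0.27, -0.24 and -0.21 on the 3 slides. Dpt, dermatopontin, differed by -0.28 ± 0.09 and Igfbp5, a binding protein of insulin-like growth factors, by -0.21 ± 0.08. Smoc2, a secreted calcium-binding matrix protein, had 55.2, 130 and 301 in nerve bundle regions, against 44.9, 88.7 and 165 in surrounding artery regions, and differed by 0.34 ± 0.12, positive in 9 of 12 animals. Dcn was at 0.16 ± 0.08 and the receptor Pdgfra at 0.06 ± 0.12. Among 18 tested genes of fibrillar collagens and their processing the median was -0.01, with Col3a1 at -0.23 ± 0.08 and Pcolce, an enhancer of collagen processing, at -0.17 ± 0.08, each lower in nerve bundle regions in 10 of 12 animals. The 14 tested basement membrane genes had a median of 0.03.

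The other genes with the smallest p on the surrounding artery side belong to no list. Kcnc4, a voltage-gated potassium channel subunit (chr3:107438298-107460287), had the smallest p of all, with 89.1, 164 and 314 in nerve bundle regions and 100, 195 and 412 in surrounding artery regions. It differed by -0.29 ± 0.07 and was lower in nerve bundle regions in 10 of 12 animals (p = 4.2e-04, adjusted p = 0.990, limma). Spast, the microtubule-severing enzyme spastin, differed by -0.27 ± 0.08 and was lower in 11 of 12 animals. Htra3, a secreted serine protease, differed by -0.28 ± 0.08 and was lower in 9 of 12 animals. The mean log2(value + 1) of Kcnc4 was 7.54 in normal fibre, 7.58 in surrounding artery and 7.29 in nerve bundle regions. For Spast these were 5.82, 5.87 and 5.59, so for both genes the surrounding artery level was near that of normal fibres. For Htra3 they were 6.10, 6.43 and 6.15.

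Genes of antigen presentation were lower in nerve bundle regions by the widest mean margins, and 1 control animal held much of that margin. H2-Ab1, a class II chain (chr17:34263227-34269418), had 23.7, 42.1 and 75.9 in nerve bundle regions and 35.2, 53.5 and 952 in surrounding artery regions. It differed by -0.63 ± 0.22 and was lower in nerve bundle regions in 11 of 12 animals (p = 0.0099, adjusted p = 0.990, limma). In control animal C2 the nerve bundle regions had H2-Ab1 values of 37.8 and 47.9, against 952 and 223 in the surrounding artery regions. The difference in C2 was -3.41, and without C2 the mean was -0.38. Cd74, the chaperone of class II chains, had 48.2 and 81.5 in the nerve bundle regions of C2, against 1865 and 412 in its surrounding artery regions, and a mean of -0.65 ± 0.25 over 12 animals and -0.36 without C2. H2-Aa, the partner of H2-Ab1, had a mean of -0.44 ± 0.19 and -0.22 without C2, and the class I chain H2-K1 -0.31 ± 0.14 and -0.19 without C2. Of 18 tested members of this list 5 had a positive difference, the median was -0.06 (0.01 without C2) and 0 passed.

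The complement genes of macrophages went with them. C1qb, a chain of the first complement component, had 10.7, 34.1 and 56.7 in nerve bundle regions and 27.1, 43.4 and 240 in surrounding artery regions. It differed by -0.47 ± 0.18 and was lower in 11 of 12 animals, and by -0.31 without C2. C1qa differed by -0.44 ± 0.17 (-0.27 without C2) and C1qc by -0.32 ± 0.16 (-0.20 without C2). C1qb, C1qa and C1qc differed by -1.22, -1.22 and -1.30 in C20, and their means without C20 were -0.41, -0.37 and -0.23. In nerve bundle regions the mean levels of C1qb, C1qa and C1qc were -0.10, 0.08 and -0.18 relative to the negative probes (log2). Ms4a7, a membrane protein of macrophages, was at 0.20 ± 0.09. The defining markers Cd68, a lysosomal glycoprotein, and Mrc1, the mannose receptor, were at -0.12 ± 0.18 (0.05 without C2, -0.24 without C20) and 0.0007 ± 0.09. Of 12 tested macrophage genes, 4 had a positive difference, the median was -0.12 (-0.02 without C2) and 0 passed. Their summed value was 338 to 624 in nerve bundle regions and 396 to 1120 in surrounding artery regions, and no gene was at 0 in any of the 38 regions. The 5 tested lymphocyte genes had a median of -0.19 (-0.06 without C2), with summed values of 170 to 520 in nerve bundle regions and 184 to 1769 in surrounding artery regions. Of 7 tested genes of mast cells and neutrophils the median was 0.07, with the alarmin S100a8 at 0.14 ± 0.06.

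**Figure D4:**
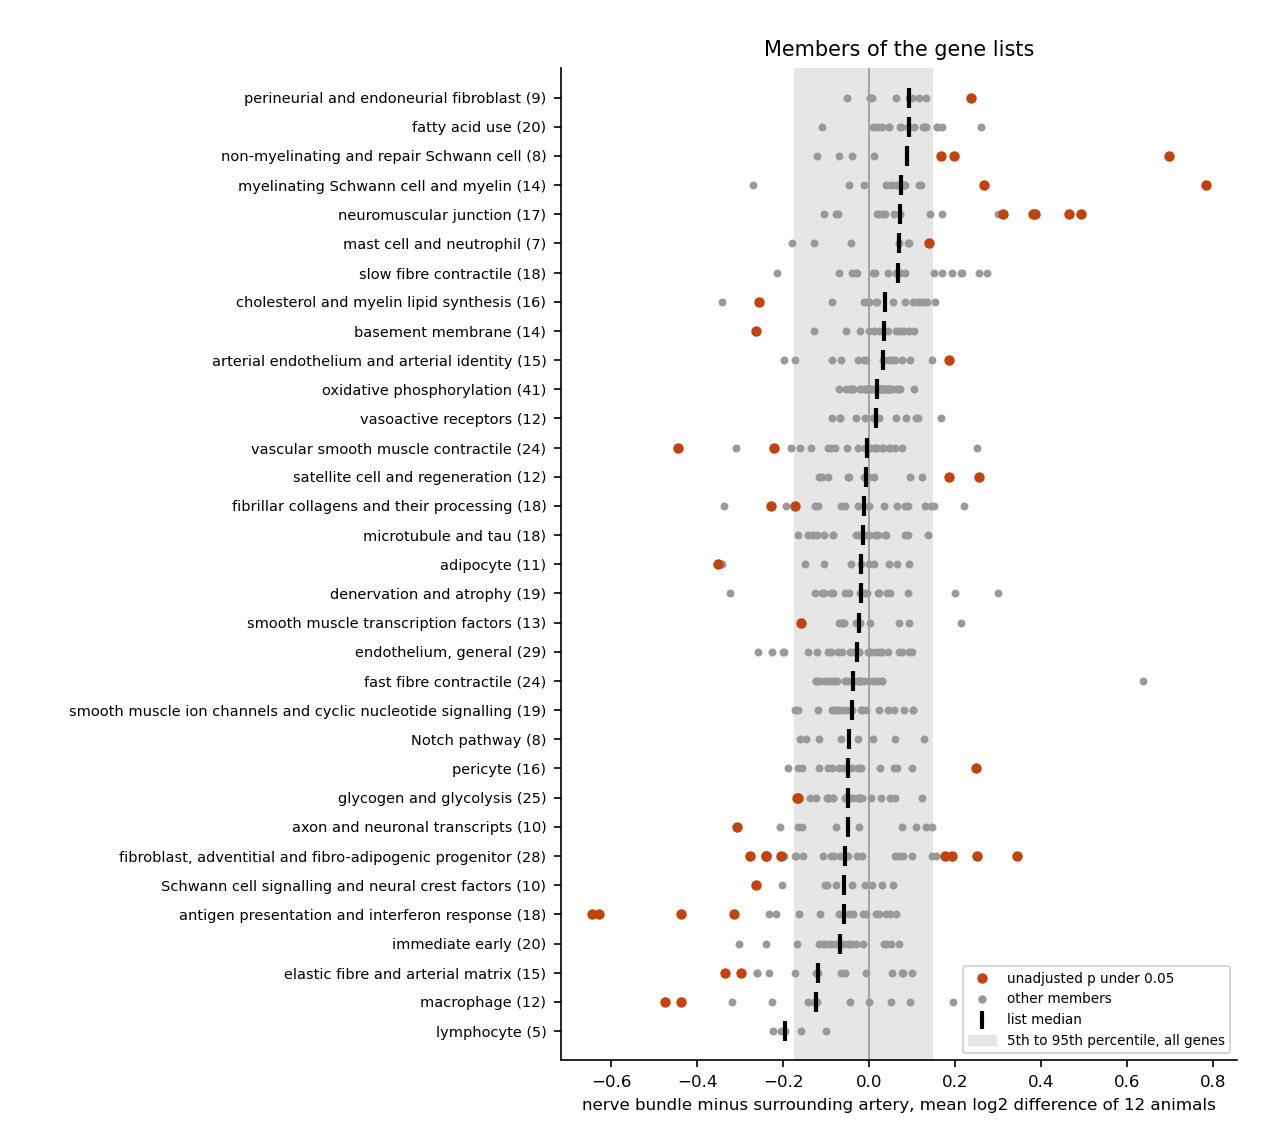
Mean differences (nerve bundle minus surrounding artery, log2, 12 animals) of the tested members of each gene list with 5 or more of them, the number tested in brackets, ordered by median (black bar). Orange points have an unadjusted p under 0.05, no member passed after adjustment, and the grey band holds the central 90% of all genes (-0.17 to 0.15), inside which all medians but that of the lymphocyte list (-0.19) lie.

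Muscle fibre transcripts had the highest values in both kinds of region. Myh4, the fast myosin of type IIB fibres, had 6373, 19909 and 46093 in nerve bundle regions and 7581, 18299 and 44224 in surrounding artery regions, far above any nerve or artery gene named here. Its difference was -0.09 ± 0.14, that of Acta1, skeletal actin, -0.04 ± 0.12, and that of Ckm, muscle creatine kinase, -0.02 ± 0.10. The 24 tested genes of the fast contractile apparatus had a median of -0.04 and the 18 of the slow one 0.07 (0.0047 without C2). By slide the slow median was 0.0062, 0.43 and -0.15, and without slide 2 it was -0.12. Of either list 0 genes had an unadjusted p under 0.05.

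A fibre type marker still differed widely between the regions of single animals. Myh2, the myosin of fast oxidative type IIA fibres, was named after its values were seen. It had 39.9, 536 and 2191 in nerve bundle regions and 38.4, 82.7 and 2787 in surrounding artery regions. The difference over 12 animals was 0.64 ± 0.72 (p = 0.384), from -5.49 in tau animal T13 to 4.26 in control animal C3. In T13 the nerve bundle region had a Myh2 value of 41.98 and the surrounding artery region 1928, while in C3 the nerve bundle region had 881 and the surrounding artery regions 43.6 and 46.2. The mean was -0.42 in tau animals and 1.70 in control animals, with 3 of 6 and 4 of 6 positive. With single animals left out it was between 0.31 without C3 and 1.20 without T13. Regions of the same type and animal also varied in Myh2, with an SD of 1.65 about their mean on the log2 scale.

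Metabolic genes were near equal on average. Of 20 tested genes of fatty acid use, 19 had a positive difference and the median was 0.09, but 0 had an unadjusted p under 0.05, and the median was -0.14 in tau animals and 0.33 in control animals. It was 0.05 without C2 and 0.04 without C20. By slide that median was -0.05, 0.40 and -0.03. Fabp3, a fatty acid carrier of oxidative fibres, differed by 0.26 ± 0.26, from -2.07 in T13 to 1.93 in C3, the same 2 animals as for Myh2, and its mean was 0.47 without T13 and 0.11 without C3. Pdk4, the kinase that restrains pyruvate oxidation, differed by 0.16 ± 0.12 (0.09 without C20, 0.24 without T13). The 41 tested genes of oxidative phosphorylation had a median of 0.02, with -0.14 in tau animals and 0.17 in control animals. By slide their median was -0.08, 0.22 and -0.09. The 25 tested genes of glycogen and glycolysis had a median of -0.05. Ldha, lactate dehydrogenase A, was at -0.17 ± 0.07 and Ppp1r3c, a glycogen-targeting phosphatase subunit, at -0.17 ± 0.08. Myh7, the slow myosin, differed by 0.28 ± 0.20, but by 0.04 without T7, in which it was 2.88. Smtnl1, a smoothelin-like protein, differed by 0.25 ± 0.18 and by 0.12 without C20. Car3, a carbonic anhydrase of slow fibres and fat, was at -0.35 ± 0.15 (-0.23 without T7), while Adipoq, the adipocyte hormone, was below the filter.

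The medians of the other lists stayed within the central 90% of all genes, and some members lay outside it. The 12 tested genes of satellite cells and regeneration had a median of -0.01, with Mymx, a peptide of myoblast fusion, at 0.26 ± 0.09 and Spry1, an inhibitor of growth factor signalling kept by quiescent satellite cells, at 0.19 ± 0.08. The 19 tested genes of denervation and atrophy had a median of -0.02 and the 18 of microtubules and tau also -0.02. The 20 tested immediate early genes had a median of -0.07. The 16 tested genes of cholesterol and myelin lipid synthesis had a median of 0.04, with Srebf1, the sterol regulatory factor of lipid synthesis, at -0.25 ± 0.10. Of these lists 0 members passed.

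The difference between the region types was then compared between tau and control animals. The tau by region type interaction called 0 of 10312 genes (0%), with a lowest limma adjusted p of 0.952, 324 genes (3.14%) at an unadjusted p under 0.05, and 245 (2.38%) by edgeR. Its 95% interval reached a median of 0.37 to either side. The gene with the smallest p was Mtfp1, a protein of mitochondrial fission, with a nerve bundle minus surrounding artery difference of -0.25 in tau animals and 0.38 in control animals, where it was positive in 6 of 6. The interaction was -0.63 ± 0.16. Net1, a guanine nucleotide exchange factor, had 0.12 in tau animals and -0.54 in control animals, and Pde1c, a calmodulin-dependent phosphodiesterase, 0.30 and -0.25. Pde1c was positive in 6 of 6 tau animals and 0 of 6 control animals. Col1a1, a chain of type I collagen, had 0.10 in tau animals and -0.36 in control animals, and Lipa, lysosomal acid lipase, 0.14 and -0.36. The difference of Pmp22 was larger in tau animals by 0.42 ± 0.17 and did not pass (limma adjusted p = 0.952).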

How the data were processed

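Regions of tibialis anterior sections were read with the GeoMx mouse whole transcriptome atlas. The deposited values are a signal: probe counts that the authors normalised to the third quartile of each region, per the file headers. Build mm10 is named in the submitters' processing notes, and the sources used here name no other step. Between 99.98% and 99.99% of values came out as whole reads (tolerance 0.02) once divided by the worth of 1 read, and these recovered counts gave total counts and the edgeR alternative.

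Values were taken as log2(value + 1), averaged per animal and region type and subtracted within an animal, so a difference understates the change of low genes. A gene was kept when it reached 1.5 times the negative probe in 10% or more of the 38 regions, which left 10312 of 10842. limma 3.58.1 in R 4.3.3 tested the 12 differences with a variance trend and Benjamini-Hochberg adjustment, at a threshold of 0.05. edgeR 4.0.16 was run on counts summed per animal and region type. Animal names in the labels pair the regions. Regions of 1 animal are not replicates and were averaged. The method was tested on simulated data, with changes planted in genes of high count that were larger than those seen here. That test does not show that the method finds small differences or those of genes near background. Total counts had an exact sign-flip test over 4096 flips.

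Genes were named by rule: the 5 with the smallest p in each direction where none was called, the 4 lowest p-values in a described list, fixed markers, and the 5 with the smallest interaction p. Of the 25 markers, 17 were tested, 2 fell below the filter and 6 were not analysed here. The comparison, lists and markers were chosen with earlier results of these data known. Some genes that these rules name are not reported here. Of 81 genes named, 60 had a RefSeq promoter entry. Alternatives covered the pseudocount, the filter, normalisation, covariates, slides, single animals and the model.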

Additional observations from a re-analysis of the deposited data

Results flagged for a closer look

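Within the 6 tau or the 6 control animals, 1 animal stood far from the other 5 in 18 cases. By a separate rule, 1 further result was picked because it went opposite ways in the treatments. Together these made 19 flags, set beside 166 groups checked (11.4%). Chance picks about 1 in 20, and the named genes share animals. The cases came from 7 animals, with 4 each in C2 and C20. All values are nerve bundle minus surrounding artery on the log2 scale.

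In control animal C2, Apod differed by 1.96, Chrne by 1.75, H2-Ab1 by -3.41 and H2-Aa by -2.79. In control animal C20, whose only nerve bundle region was the shallowest, the total count differed by -2.46, Arhgef10 by -1.65, Shh by 0.71 and Ldha by -0.78.

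In tau animal T30, Arhgef10 differed by -1.29, C1qb by -1.30 and C1qc by 0.40. In tau animal T13, Acta2 differed by -2.37, Smtnl1 by -1.14 and the negative probe value by 0.27. In tau animal T14, Kcnc4 differed by 0.19 and Htra3 by 0.33, where the other 5 tau animals were negative. Cd74 differed by -1.16 in tau animal T20 and Myh7 by 2.88 in tau animal T7.

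Pde1c was positive in every tau animal and negative in every control animal, with a tau minus control value of 0.54. The test of that difference did not pass (limma adjusted p = 0.952). Pde1c was named because its interaction p was among the 5 smallest, so its split by treatment was selected from these data.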

How the results depend on the processing

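Under each of 34 alternatives 0 genes were called between nerve bundle and surrounding artery regions, the lowest adjusted p was between 0.158 and 0.999996, and 61 to 617 genes had an unadjusted p under 0.05. The interaction called 0 genes under 31 alternatives. Without the replicate block, which sets aside the pairing of regions by animal, 0 genes were called, the lowest adjusted p was 0.999996 and 61 genes had an unadjusted p under 0.05. The variance prior and animal quality weights were tried after seeing the data, and the 0.158 came from these weights. Of 2705 alternative values for the 81 named genes, 2646 kept their direction and 59, in 22 genes, did not. The cause was not tested. Depth limits genes near the negative probes.

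Changes of direction were as follows, in log2 units. With single animals left out in turn, the total count difference was between -0.22 and 0.054 and the negative probe difference was between -0.023 and 0.0334, the total count turning without C20. Gene values then were Pecam1 between -0.0126 and 0.0746, Cdh5 between -0.0774 and 0.0392, Pdgfra between -0.00831 and 0.17, Cd68 between -0.24 and 0.0548, Mrc1 between -0.0418 and 0.0546, Acta1 between -0.083 and 0.000297, Ckm between -0.0394 and 0.000868 and Pde1c between -0.0446 and 0.081. With 1 region per animal and type, values were the negative probe difference -0.0129, Cnp -0.018, Prx -0.00446, Mrc1 -0.0256, Acta1 0.00169, Ckm 0.0246 and Pde1c -0.0355. With animal as a random effect, values were Pecam1 -0.00257, Mrc1 -0.0338, Ckm 0.0297 and Pde1c -0.0357. With animal quality weights, values were S100b -0.00669, Cdh5 0.0415 and Acta1 0.00254. In control animals alone, values were Cnp -0.0085, Acta2 0.019, Pecam1 -0.0678, Cdh5 0.0141, Myh7 -0.00285 and Pde1c -0.25. With the negative probe value subtracted, values were Cdh5 0.0484 and Mrc1 -0.22. With quantile normalisation, values were Cdh5 0.0112, Mrc1 -0.00859 and Ckm 0.0133. In tau animals alone, values were Mrc1 -0.00768, Pdk4 -0.0157, Mtfp1 -0.25, Net1 0.12, Col1a1 0.10, Lipa 0.14, Myh2 -0.42, Lyve1 0.0387 and Vwf 0.0736. Without regions whose third-quartile count was 30 or fewer, Ckm was 0.0251. Without slide 1, values were S100b -0.0421, Acta2 0.15, Cdh5 0.0971, Pdgfra -0.16, Cd68 0.15, Acta1 0.000262 and Pde1c -0.0100. Without slide 2, values were Pecam1 -0.00229 and Fabp3 -0.0192. Without slide 3, values were Mrc1 -0.0482, Acta1 0.00618 and Ckm 0.00593.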
